A study of Mus musculus with 2 samples.

Results

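The genes described here encode the adhesion molecules of cell junctions: 23 cadherins, 42 protocadherins and 25 claudins, 90 of the 19087 genes that the arrays name. They were taken by symbol alone, as Cdh followed by a number, Pcdh, or Cldn followed by a number. The choice of these families was made with earlier results of these data known. They were read by 141 probes. RNA of mouse embryonic stem cells was compared on 2 two-colour arrays of opposite dye order. Tcl1 stable transformants, which are Tcl1-/- cells given the CAG-Tcl1ireszeopA vector, were set against Tcl1 gene disruptants. In all of these cells PGK-puro replaces stretches of exons 2 and 3 at both copies of Tcl1. Array 1 paired transformant clone 1 in Cy5 with disruptant clone 4 in Cy3, and array 2 paired transformant clone 4 in Cy3 with disruptant clone 6 in Cy5. Disruptant clone 6 had also received CAG-EGFP, and no vector is stated for disruptant clone 4. The transformants came from disruptant clone 4, each line is 1 clone, and the cells grew with LIF and serum on gelatin without feeder cells. Every value below is a log2 ratio of transformant over disruptant, with array 1 given first, and an SD is over n = 2 arrays. The direction rests on reading the deposited values as Cy5 over Cy3, which is likely, though no source states it. Read the other way round, all signs given here would turn. Clone pair, EGFP vector and dye order cannot be told apart on either array. A p-value measures the spread between these 2 clone pairs alone.

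Classical cadherins are calcium-dependent receptors that bind the same cadherin on a neighbouring cell and are tied to actin through catenins. Cdh1, or E-cadherin, holds embryonic stem cell colonies together and is the cadherin that epithelia use. Protocadherins lack the catenin-binding tail, and many of them are made from the alpha, beta and gamma gene clusters, whose products label single neurons. Claudins are proteins with 4 membrane spans that form the strands of tight junctions and set which ions pass between epithelial cells.

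Cldn7, Cldn3 and Cldn6, claudins of epithelia, were the claudins that lay furthest above 0 on both arrays, and the stretches around their starts are shown for that reason. Cldn4 is shown with them as the neighbour of Cldn3, while Cldn9, the neighbour of Cldn6, is not shown. Each window runs from 250 bases before to 50 bases after a RefSeq start in GRCm38.p6, read 5′ to 3′ on the gene's strand, and Cldn7 has 2 annotated starts. Capitals mark the E-box CAGGTG on either strand, which reads CACCTG when it lies on the other strand. Repressors of the Snai and Zeb families are known to bind this element at the Cdh1 promoter.
Cldn7, first start, chr11:69964529-69964828, plus strand: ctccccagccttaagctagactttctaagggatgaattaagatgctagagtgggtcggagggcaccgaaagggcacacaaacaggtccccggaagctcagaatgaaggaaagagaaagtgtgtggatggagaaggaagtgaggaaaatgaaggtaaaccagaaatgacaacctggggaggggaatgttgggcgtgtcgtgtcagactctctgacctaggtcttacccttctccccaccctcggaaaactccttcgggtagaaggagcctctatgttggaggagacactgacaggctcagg
Cldn7, second start, chr11:69965171-69965470, plus strand: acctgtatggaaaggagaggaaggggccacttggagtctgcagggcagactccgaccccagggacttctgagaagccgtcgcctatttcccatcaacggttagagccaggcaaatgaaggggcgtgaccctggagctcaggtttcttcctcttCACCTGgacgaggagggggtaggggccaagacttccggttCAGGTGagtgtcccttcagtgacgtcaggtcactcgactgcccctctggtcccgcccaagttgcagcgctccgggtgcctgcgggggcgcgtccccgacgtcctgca
Cldn3, chr5:134985964-134986263, plus strand: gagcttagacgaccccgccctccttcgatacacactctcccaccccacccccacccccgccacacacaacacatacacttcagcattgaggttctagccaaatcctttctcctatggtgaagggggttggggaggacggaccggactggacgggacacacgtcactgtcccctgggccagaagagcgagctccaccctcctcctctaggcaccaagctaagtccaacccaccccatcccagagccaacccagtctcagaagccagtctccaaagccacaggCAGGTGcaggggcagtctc
Cldn4, chr5:134946885-134947184, minus strand: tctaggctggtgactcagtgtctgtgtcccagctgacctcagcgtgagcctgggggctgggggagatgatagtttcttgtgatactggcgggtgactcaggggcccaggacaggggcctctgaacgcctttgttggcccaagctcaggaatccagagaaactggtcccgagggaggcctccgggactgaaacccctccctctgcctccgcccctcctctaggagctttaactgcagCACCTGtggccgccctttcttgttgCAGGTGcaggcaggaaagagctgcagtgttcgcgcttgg
Cldn6, chr17:23679115-23679414, plus strand: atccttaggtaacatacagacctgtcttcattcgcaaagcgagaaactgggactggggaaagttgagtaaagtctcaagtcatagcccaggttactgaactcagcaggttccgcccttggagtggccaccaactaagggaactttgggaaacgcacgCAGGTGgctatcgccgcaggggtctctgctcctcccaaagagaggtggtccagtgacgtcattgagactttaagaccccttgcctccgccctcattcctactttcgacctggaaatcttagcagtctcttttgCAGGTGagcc

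The first window of Cldn7 had 0 matches and the second had 2, at positions 154 and 194 counted from 1 at the window's 5′ end. Cldn3 had 1 match at 282, Cldn4 had 2 at 237 and 262, and Cldn6 had 2 at 158 and 291. Over all 32851 windows of the table, 20.2% held at least 1 match and 2.88% held 2 or more. Among the junction genes 42 of 90 were in the table with 53 windows, of which 18.9% held a match and 5.66% held 2 or more. By family a match lay in 5 of 28 claudin windows, 3 of 15 cadherin windows and 2 of 10 protocadherin windows. Windows with 2 or more numbered 3 among the claudins, all of them printed above, and 0 in each of the other families. A match describes the letters and not a bound site.

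No junction gene passed the test between transformants and disruptants. limma called 0 of the 90 genes and 0 (0%) of all 30110 entries, with an adjusted p of 1 for each junction gene. With 2 arrays this does not show that the groups were alike. Without adjustment, limma's p was under 0.05 for 5 junction genes that were higher in the transformants, a class holding 1.45% of all named genes, and for 0 that were lower, a class holding 1.93%. These 5 were Cldn3, Cdh9, Cldn7, Pcdhb10 and Pcdhb9, whose unadjusted limma p ranged between 0.0221 for Cldn3 and 0.0388 for Pcdhb9. A shift of 2-fold or more with 1 sign on the 2 arrays was found for 0 junction genes in either direction, against 0.262% of named genes lower and 0.0157% higher. On array 1 by itself 4 of the 90 reached 2-fold, where 3.46% of named genes did, and on array 2 by itself 1 of the 90, where 6.02% did.

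By sign, 30 junction genes lay above 0 on both arrays and 11 below 0 on both, where the shares of all named genes were 22.1% and 19.4%. Opposite signs were found for 43, against 55.4% of named genes, and 6 stood at exactly 0 on an array, against 3.15%. Opposite signs with the Cy5 sample the brighter on both arrays held 19 of all 90, and those with the Cy3 sample brighter 24 of all 90. Of all named genes 28.2% and 27.2% were in these classes. For genes of opposite sign 1 dye gave the stronger signal each time, and dye and clone pair cannot be told apart for such a gene. The medians of the 90 were 0.035 on array 1 and 0.084 on array 2, beside 0.0053 and 0 for all named genes. The median SD between arrays was 0.197 for the junction genes and 0.247 for all named genes.

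**Figure D1:**
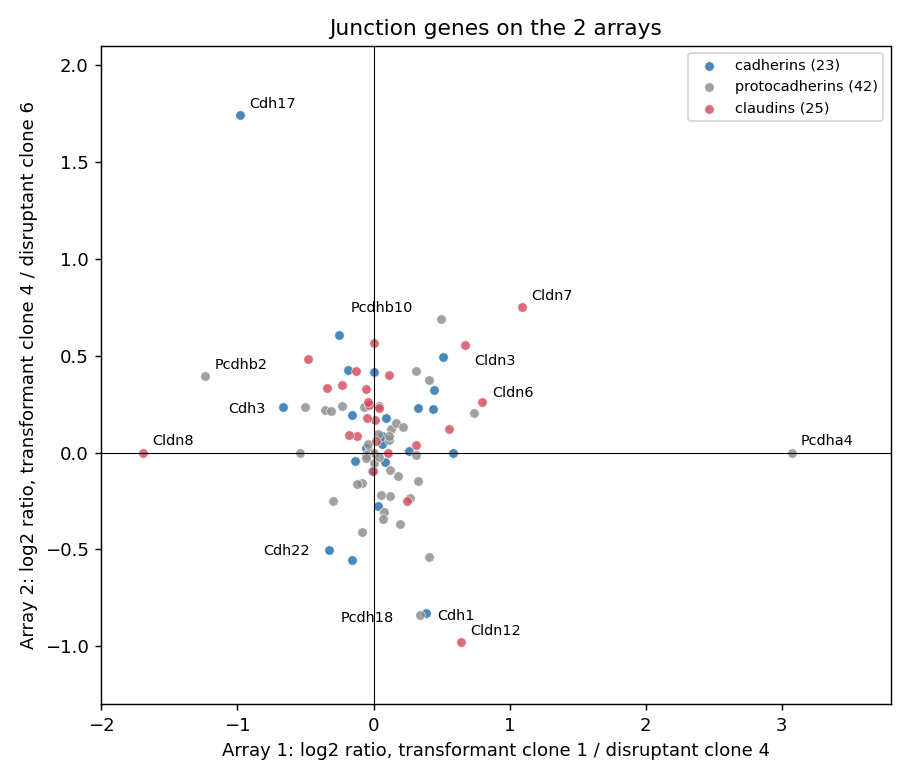
Each point is 1 gene, with its log2 ratio of transformant over disruptant on array 1 along the x axis and on array 2 along the y axis, coloured by family. Cldn7 (1.09 and 0.75) lies furthest into the quadrant where both arrays are above 0, while Cdh1 (0.39 and −0.83), Cldn12 and Cdh17 lie in the quadrants of opposite sign.

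Cdh1 gave 0.39 on array 1 and −0.83 on array 2 with its 1 probe, a mean of −0.22 ± 0.86 (SD, n = 2). The arrays thus placed it on opposite sides of 0, and the Cy5 sample was the brighter on both. The other 22 cadherins had medians of 0.020 on array 1 and 0.13 on array 2. Cdh1 stood above that median on array 1 by 0.37, with 4 of the 22 above it. On array 2 it stood below the median by 0.96 (difference −0.96), and all 22 other cadherins were above it. The mean difference of Cdh1 from the other cadherins was −0.30 ± 0.94 (SD, n = 2). An exact two-sided sign-flip test over the arrays gave p = 1, where 2 arrays cannot go below 0.5. Gene by gene, Cdh1 lay on the same side on both arrays for 4 of the 22, and was below each of those: Cdh19, Cdh23, Cdh8 and Cdh9.

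The other type I cadherins differed little or went opposite ways. Cdh3, or P-cadherin, is the next gene to Cdh1 on chromosome 8, with 0 protein-coding genes between them. It had −0.67 and 0.23, so its signs ran opposite to those of Cdh1 on each array. The probe averages of Cdh2, the N-cadherin of neural and mesodermal cells, were 0.26 and 0.0083. Its 4 probes disagreed, from −0.30 to 0.46 in their means, and the probe on the RefSeq transcript had 0.48 and −1.09. Read from that probe alone, Cdh2 had the pattern of Cdh1, above 0 on array 1 and below 0 on array 2. Cdh4, the R-cadherin of retina and brain, had −0.13 and −0.043 over 3 probes, each with opposite signs on the 2 arrays. Cdh15, the M-cadherin of muscle precursors, had 0.0069 and 0.42.

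Among the 13 type II cadherins 6 lay above 0 on both arrays, 2 below on both and 4 on opposite sides. The shares of all named genes were 22.1%, 19.4% and 55.4%. Cdh9, a cadherin of synapses, had 0.51 and 0.49, a mean of 0.50 ± 0.014 (SD, n = 2) or 1.42-fold, the highest mean of the 23 cadherins. Cdh8 had 0.44 and 0.23 as the average of 3 probes, whose means ranged from −0.078 to 0.68 and of which 1 stood at exactly 0 on array 2. Cdh12 had 0.33 and 0.23, and Cdh6, the K-cadherin of kidney, 0.090 and 0.18. Cdh22 lay lowest of the type II genes with −0.33 and −0.50, a mean of −0.42 ± 0.12 (SD, n = 2). Cdh24, the other type II gene below 0 on both arrays, had −0.014 and −0.096. Each of its 2 probes had opposite signs on the 2 arrays, so the shared sign came from averaging. Cdh11, of mesenchyme and bone, had 0.032 and −0.28 over 3 probes. Its only probe without an exact 0 gave 0.43 and −0.83. Cdh18 had −0.26 and 0.60, opposite in sign. Cdh5, the VE-cadherin of endothelium, had 0.064 and 0.083, near 0 on both.

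The 5 other cadherins included the widest split of the family. Cdh17, the cadherin of liver and intestine, had −0.98 on array 1 and 1.74 on array 2, and was the only junction gene past 2-fold on array 2. Cdh13, the T-cadherin that is held by a lipid anchor and has no cytoplasmic tail, had −0.15 and −0.55 with probe means of −0.81 and 0.11. The lower of these probes is the one on the RefSeq transcript. Cdh23, which forms the tip links of inner ear hair cells, had 0.45 and 0.32, above 0 on both, with probe means of 0.14 and 0.64. The lower of these probes had −0.14 and 0.41, opposite in sign. Pcdh15, the partner of Cdh23 in the tip link, had 0.27 and −0.24.

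**Figure D2:**
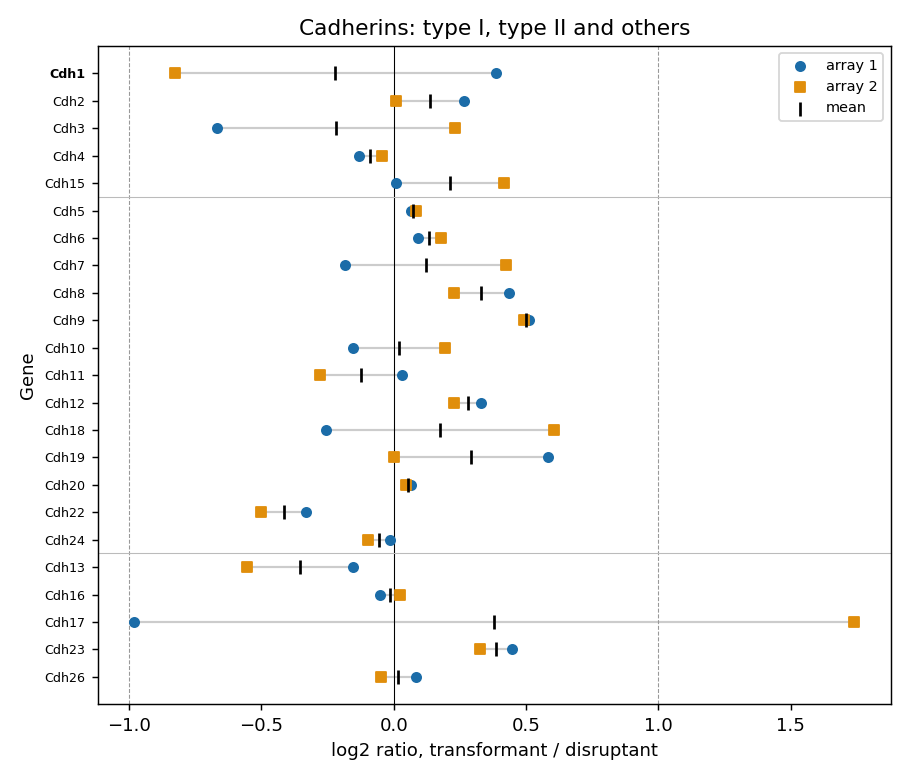
Log2 ratios of transformant over disruptant for the 23 cadherins, grouped from top to bottom into type I, type II and other cadherins. Circles are array 1, squares array 2, short bars the mean, and dashed lines mark 2-fold. Cdh1 and Cdh3 span 0 in opposite directions, Cdh9 lies at about 0.5 on both arrays and Cdh17 spans the widest range.

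Of 25 claudins, 10 lay above 0 on both arrays and 1 below on both, against 22.1% and 19.4% of named genes. Signs were opposite for 12, with the Cy3 sample brighter for 10 of the 25 and the Cy5 sample for 2 of the 25. Of all named genes 27.2% and 28.2% were in these classes. On array 2, 20 claudins were above 0 and 3 below, whereas on array 1 13 were above and 12 below. Of all named genes 49.6% were above 0 on array 2 and 50.7% on array 1. The family's medians were 0.0047 on array 1 and 0.23 on array 2. The family's higher count above 0 was thus seen on array 2, while Cldn7 and Cldn3 were high on both.

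Cldn7, a claudin of the lateral membrane of epithelia, had 1.09 and 0.75, a mean of 0.92 ± 0.24 (SD, n = 2) or 1.89-fold. Both arrays placed it above 0 by more than they differed. Cldn3, a barrier-forming claudin, had 0.67 and 0.55, a mean of 0.61 ± 0.085 (SD, n = 2) or 1.53-fold. These were the only 2 junction genes above 0.5 on both arrays, where 0.54% of named genes were, and 0 lay below −0.5 on both, where 1.71% were. Cldn6, a claudin of early embryonic epithelia, had 0.79 and 0.26, a mean of 0.53 ± 0.38 (SD, n = 2). Cldn4, which like Cldn3 serves as a receptor of a clostridial toxin, had 0.0047 and 0.56, so it was high on array 2 alone. Cldn3 and Cldn4 are neighbours on chromosome 5 with 0 protein-coding genes between them, as are Cldn6 and Cldn9 on chromosome 17. Cldn9 had −0.056 and 0.33, and neither neighbour repeated the value of its partner on array 1. Of the windows printed above, those of Cldn6, Cldn4 and the second start of Cldn7 held 2 E-boxes each. That of Cldn3 held 1 and that of the first start of Cldn7 held 0. Whether E-boxes go with the ratios was not tested.

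Further claudins above 0 on both arrays had smaller or less certain values. Cldn1, needed for the water barrier of skin, had 0.55 and 0.12, but of its 2 probes 1 gave 1.17 and 0.096 and the other −0.069 and 0.14. Cldn17 had 0.12 and 0.40, and Cldn23 had 0.32 and 0.038. Cldn11, the claudin of myelin and Sertoli cells, had 0.037 and 0.23. Cldn10, which forms ion-selective pores, was the 1 claudin below 0 on both, with −0.0021 and −0.094.

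The claudins with opposite signs were led by Cldn12, with 0.64 and −0.98, where the Cy5 sample was the brighter on both as for Cdh1. Cldn18, a claudin of lung and stomach, had −0.48 and 0.485, and the X-linked Cldn34d had −0.34 and 0.34, so both averaged close to 0. Cldn2, a pore for cations, had 0.24 and −0.25. Cldn5, the claudin of brain endothelium, had −0.038 and 0.26. Cldn8, a claudin of the distal kidney tubule, had −1.69 on array 1 and exactly 0 on array 2. The labels do not say what an exact 0 stands for, so Cldn8 has a usable ratio on 1 array at most.

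**Figure D3:**
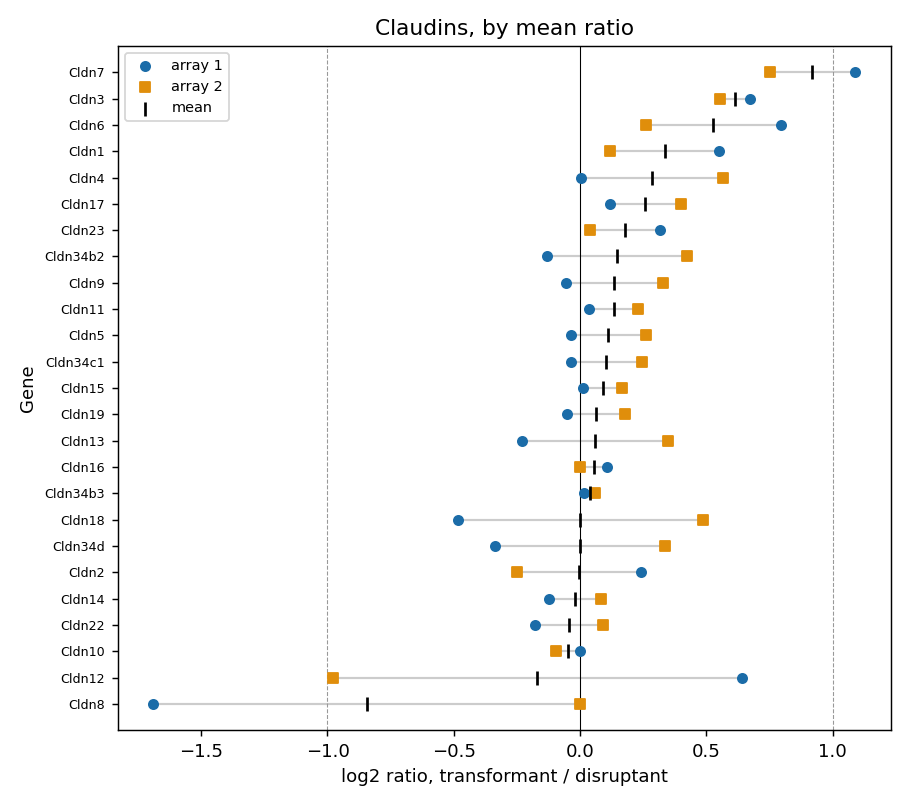
Log2 ratios of transformant over disruptant for the 25 claudins in order of their mean, with circles for array 1, squares for array 2, short bars for the mean and dashed lines at 2-fold. Cldn7, Cldn3 and Cldn6 lead with both arrays above 0, and most of the middle rows have array 2 above 0 and array 1 near or below it.

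The 42 protocadherins were centred near 0, with medians of 0.064 on array 1 and 0 on array 2. Of these, 11 lay above 0 on both arrays, 6 below on both, 22 on opposite sides and 3 at exactly 0 on an array. These were 26.2%, 14.3%, 52.4% and 7.14%, against 22.1%, 19.4%, 55.4% and 3.15% of named genes. Among the 22 genes of the beta cluster 8 were above 0 on both and 3 below (36.4% and 13.6%). Pcdhb10 had 0.495 and 0.69, a mean of 0.59 ± 0.14 (SD, n = 2) or 1.51-fold. Its neighbour in name Pcdhb9 had 0.41 and 0.37, a mean of 0.39 ± 0.026 (SD, n = 2) or 1.31-fold. Both stood above 0 by more than their arrays differed. Pcdhb15 had 0.74 and 0.21, but its 2 probes differed, with means of −0.045 and 0.99. Pcdhb8 had 0.16 and 0.15.

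Other beta genes were low or mixed. Pcdhb22 had −0.083 and −0.41, and Pcdhb3 had −0.085 and −0.16. Pcdhb2 had −1.24 on array 1 and 0.40 on array 2, and Pcdhb6 had 0.41 and −0.54, so neither had a shared direction. Genes of 1 cluster are close in sequence and probe sequences were not examined here, so how far a value belongs to 1 of them is uncertain. In the alpha cluster Pcdha4 gave the largest value of any junction gene, 3.07 on array 1, with exactly 0 on array 2. Pcdha6 and Pcdha9 had −0.032 and 0.0078, and −0.067 and 0.24, so they did not repeat the array 1 value of Pcdha4. The 6 genes of the gamma cluster had values from −0.54 to 0.12 on array 1 and from −0.22 to 0.096 on array 2.

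The 11 protocadherins outside the clusters had medians of 0.076 on array 1 and −0.16 on array 2. Averaged over probes, 2 were above 0 on both and 3 below on both, against 22.1% and 19.4% of named genes. Pcdh17, a delta-2 protocadherin of brain circuits, had 0.31 and 0.42, and its 3 probes had means from 0.097 to 0.55. The lowest of these probes had 0.29 and −0.093, opposite in sign. Pcdh10, of the same delta-2 group, had −0.30 and −0.25 as averages, over measured probes whose means ranged from −0.80 to 0.12. Pcdh7, a delta-1 protocadherin, had −0.12 and −0.16, but each of its 2 probes had opposite signs on the 2 arrays. The X-linked Pcdh19 had −0.056 and −0.028, with probe means of −0.23 and 0.14. Pcdh18 had 0.34 and −0.84, close to the values of Cdh1. Pcdh8, a gene of the paraxial mesoderm, had −0.31 and 0.21. Pcdh12, of endothelium and trophoblast, had 0.22 and 0.13, but each of its 2 probes had opposite signs on the 2 arrays.

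**Figure D4:**
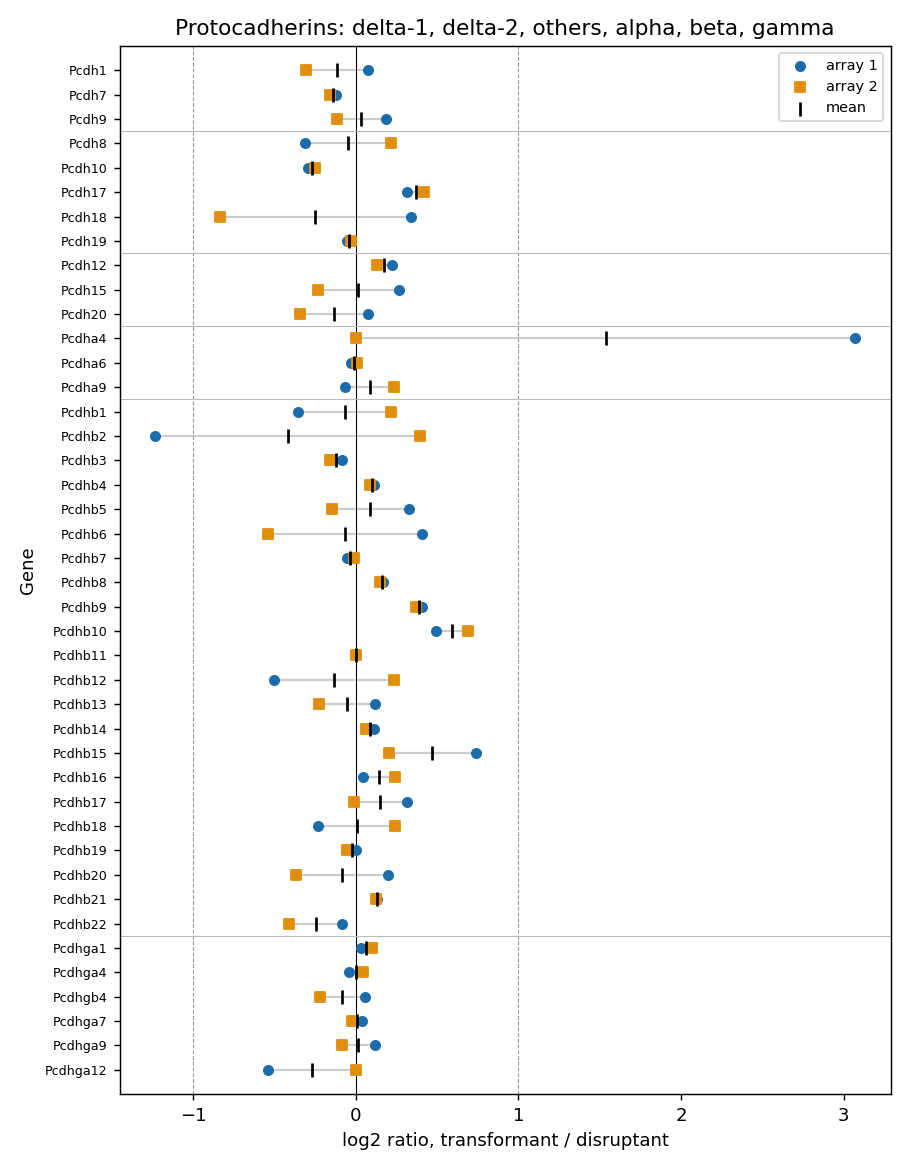
Log2 ratios of transformant over disruptant for the 42 protocadherins, from top to bottom the delta-1, delta-2 and other unclustered genes and the alpha, beta and gamma clusters, with circles for array 1, squares for array 2, short bars for the mean and dashed lines at 2-fold. Pcdha4 stands alone at 3.07 on array 1 with 0 on array 2, and Pcdhb10 has the highest value shared by both arrays.

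Of 31 junction genes with several probes, 30 had at least 2 probes that were not 0 on both arrays. Probe means fell on both sides of 0 for 16 of the 30, and the median gap between the highest and the lowest probe mean was 0.244. Cdh10 had the widest gap, with probe means from −0.74 to 0.56. The lowest of these is from a probe with −1.48 on array 1 and exactly 0 on array 2. Cldn7, Cldn3, Cldn6, Cdh9, Pcdhb9 and Pcdhb10 were each read by 1 probe, so no second probe bears on them.

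Catenins and other partners of adherens junctions did not share 1 direction. Of 26 measured, 13 had the Cy5 sample brighter on both arrays, 6 the Cy3 sample, 3 were above 0 on both and 4 below on both. For all named genes these shares were 28.2%, 27.2%, 22.1% and 19.4%. The medians of the 26 were 0.13 and −0.24, and limma called 0 of them. Ctnnb1, or beta-catenin, which links cadherins to alpha-catenin, had 0.031 and −1.01. Ctnna1, the alpha-catenin that reaches actin, had 0.22 and −0.79, and Ctnnd1, which protects cadherins from uptake, 0.19 and −0.46. These 3 had the signs of Cdh1 on both arrays. Other catenins did not: Jup, or gamma-catenin, which can take the place of beta-catenin, had −0.36 and 0.49, Arvcf −0.68 and 0.0043, and Ctnnd2 −0.84 and −0.069. Ctnna2, the alpha-catenin of neurons, had 0.038 and 0.26, and Ctnna3, that of heart, −0.10 and 0.10. The catenins were chosen after their values were seen. Actn4 and Nectin3 were below 0 on both, with −0.29 and −1.01, and −0.087 and −0.84. Nectin2 was above 0 on both with 0.19 and 0.50.

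Partners of tight junctions were mixed in the same way, with medians of 0.14 and −0.24 over 24 measured genes. On both arrays 4 were above 0 and 5 below, against 22.1% and 19.4% of named genes. Lsr, an angulin of tricellular junctions, had 0.43 and 0.65, and Crb3, a polarity protein of the apical membrane, 0.097 and 0.94. Jam2, a junctional adhesion molecule, lay lowest with −1.16 and −0.80. The scaffold gene Tjp1 had 0.45 and −0.25 and Ocln, which encodes occludin, −0.042 and 0.17. Lsr thus shared the signs of Cldn7 and Cldn3 on both arrays, while Tjp1 and Ocln did not. Tjp1, Ocln, Snai2, Epcam and Esrp1 were chosen after their values were seen.

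Repressors of Cdh1 did not share 1 direction. Snai1 had −0.88 and −0.61, and Twist1 had 0.69 and 0.52. Twist2 had −1.11 and −0.22, Zeb1 0.030 and −0.54, and Snai2 0.25 and −1.39. Of 8 measured, 2 were above 0 on both arrays, 2 below on both and 4 opposite, against 22.1%, 19.4% and 55.4% of named genes. Other epithelial genes had medians of 0.13 and 0.11. On both arrays 5 of 19 were above 0 and 1 below, where 22.1% and 19.4% of named genes were. Tmem54 had 0.80 and 0.39, Prss8, a membrane protease, 0.13 and 0.69, and Krt19, a keratin, −0.70 and −0.38. Epcam, an adhesion protein of epithelia and stem cells, had 0.59 and −0.13, and Esrp1, an epithelial splicing factor, 1.00 and −1.22, with opposite signs as for Cdh1.

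**Figure D5:**
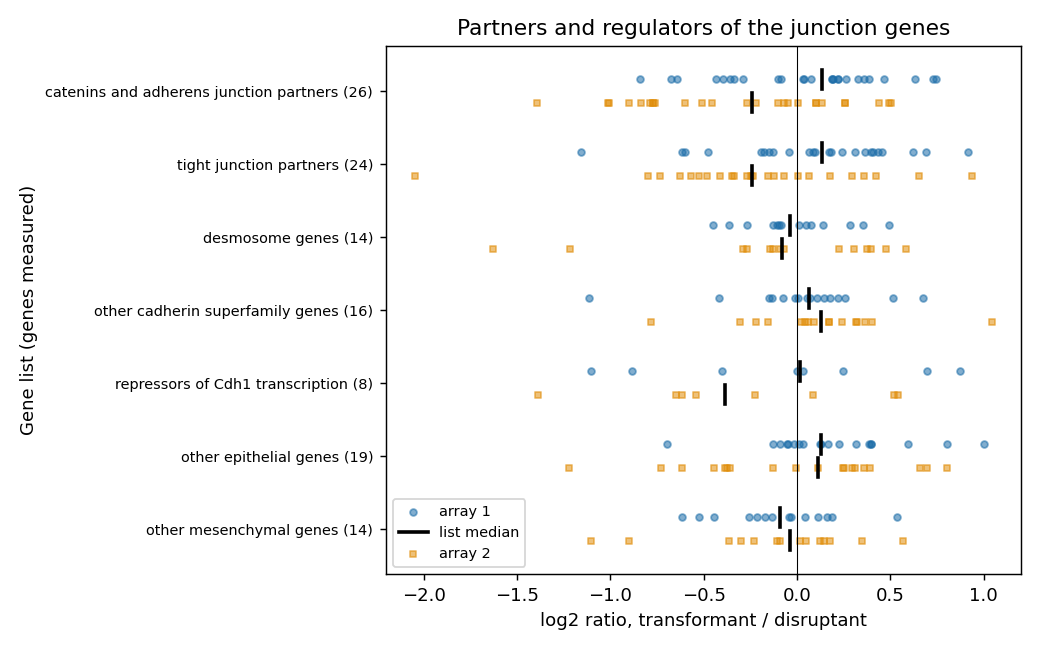
Log2 ratios of transformant over disruptant for the genes of 7 lists of partners and regulators, with array 1 as circles, array 2 as squares and the median of each list on each array as a black bar. The catenin and tight junction lists have medians above 0 on array 1 and below 0 on array 2.

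Across the whole data set the deposited medians were 0 and 0, and the SD over named genes was 0.426 on array 1 and 0.498 on array 2. The arrays ran weakly against each other, with a Pearson correlation across named genes of −0.14, and of −0.15 across the 90 junction genes. Genes are not independent replicates. Because ratios carry no level, the label of the cells could not be checked against their markers, and which spots lay above background is unknown. Of 10 stem cell markers 8 were below 0 on both arrays, against 19.4% of named genes, with medians of −0.63 and −0.62. Pou5f1 (0.10 and 0.50) and Utf1 were above on both. Markers of trophoblast had medians of −0.29 and −0.36, of mesoderm −0.090 and −0.050, of neural cells −0.17 and −0.083, of primitive endoderm −0.17 and 0.13 and of fibroblasts −0.056 and 0.075. The part of these in the junction gene values was not tested. In bulk RNA fewer cells of a type and less RNA per cell cannot be told apart.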

How the data were processed

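The authors deposited 1 value per spot and array, read here as log10 ratios of Cy5 over Cy3. Per the submitters' processing notes, Agilent Feature Extraction was used. Neither its version nor its correction steps are stated, the log10 scale is inferred from the convention of that software, and the centring is unknown (medians 0 and 0). GEO's platform annotation gave 32042 of 43790 spots 1 symbol and 47 several, and 11701 were unlisted. Of these, 725 spots below −1 on both arrays were left out as inferred controls.

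Values were multiplied by 3.32 to log2, array 2 was turned, and probes of a symbol were averaged, giving 30110 entries. limma 3.58.1 (R 4.3.3; lmFit, eBayes) compared each entry's mean over arrays with 0. The test was two-sided and adjusted by Benjamini-Hochberg across every entry at 0.05. It had 1 residual and 0.861 prior degrees of freedom and was tested on simulated data, where it recovered the mean of the altered entries but called none of them at this number of arrays. The number of arrays limits the precision.

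Named genes were the type I cadherins, up to 5 per family and direction by the smaller array value, up to 3 per family with opposite signs, and up to 3 per direction in each partner list. Other genes given with values were chosen after these were seen. The junction genes and lists were chosen with earlier results of these data known, and 1 gene with no such known role was dropped from the Cdh1 repressors after its values were seen. The closing section gives the alternatives tried.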

Additional observations from a re-analysis of the deposited data

How the results depend on the processing

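With other centring, medians over probes, exact zeros left out, control spots kept or listed probes alone, every count stayed within 1.5 times its value. The counts did so with the robust variance model as well. Every median and the Cdh1 difference stayed within the spread between arrays in these settings and with each probe by itself. Probe by probe the unit changes: 15 of 141 probes were below 0 on both arrays and 40 above. limma called 0 junction genes and 0 entries in each of these settings. Read without turning array 2, which goes against the dye labels and turns a shared difference into an opposite one by construction, 24 junction genes were below 0 on both arrays and 19 above. The cadherin median was then 0.010 (0.00997), the claudin median −0.10 and the Cdh1 difference 0.66. Of the genes named with both arrays on 1 side of 0, these 33 had means of the other sign: Cdh15 −0.20, Cdh22 0.086, Cdh13 0.20, Cdh24 0.041, Cdh6 −0.044, Pcdh7 0.020, Pcdhb3 0.036, Pcdhb22 0.16, Pcdhb10 −0.096, Pcdh17 −0.053, Cldn10 0.046, Cldn17 −0.14, Actn4 0.36, Nectin3 0.37, Nectin2 −0.16, Ajuba −0.18, Ctnna2 −0.11, Prkcz 0.036, Lsr −0.11, Pard6a −0.028, Crb3 −0.42, Pkp2 0.63, Dsg1a 0.081, Dsc2 0.080, Evpl −0.12, Clstn3 0.0091, Cdhr3 −0.26, Ret −0.11, Tcf3 −0.27, Prss8 −0.28, Sparc 0.19, Cd44 0.16, Foxc2 −0.0037. With the values read as log2, not log10, every value is 3.32 times smaller: the cadherin median was 0.022, the claudin median 0.027, the Cdh1 difference −0.089 and the mean of Cldn7 0.28. With RefSeq probes alone, a choice made after seeing the data, the cadherin median was 0.017. Cdh2 then had −0.30, against 0.14 over all probes. Means then also moved by over 1.5 times for Cdh13 (−0.81), Pcdh10 (−0.80), Vim (−0.56), Cdh18 (0.097), Cdh4 (−0.052), Pcdh7 (−0.068), Ctnna2 (0.092) and Esrp2 (0.16). Cdh9, Cldn34d and Cdhr3 have no such probe and no value there. With a 1.5-fold limit 1 gene, Cldn7, was higher on both arrays. The share of all named genes at that limit was not counted, so this count has no background beside it.

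Leaving out 1 array leaves no residual degrees of freedom, so limma was not run. The counts then refer to 1 array, with 0 to 2 genes lower and 1 to 2 higher by 2-fold, 30 to 37 below 0 and 52 to 54 above. The cadherin median ranged from 0.032 to 0.083, the protocadherin median from 0 to 0.064, the claudin median from 0.0047 to 0.23, and the Cdh1 difference from −0.96 to 0.37. Each array holds both groups and gives 1 ratio, so the test of the mean ratio against 0 already used this pairing.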

Other observations

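Among cadherin superfamily genes outside the 3 families, 8 of 16 measured were above 0 on both arrays and 2 below on both. The shares of named genes were 22.1% and 19.4%. The medians of the 16 were 0.062 and 0.13. Cdhr3, a cadherin of ciliated airway cells, had 0.51 and 1.04, and Cdhr1, a cadherin of photoreceptors, −1.11 and −0.78. Ret, a receptor kinase with cadherin-like repeats, had 0.18 and 0.40, and Dchs1, the partner of Fat4, 0.26 and 0.17. Desmosome genes had medians of −0.037 and −0.081. Pkp2, a plakophilin, had −0.37 and −1.63, against Evpl with 0.35 and 0.58 and Dsc3 with 0.495 and 0.31. Mesenchymal genes had medians of −0.089 and −0.037, and signs were opposite for 10 of the 14, against 55.4% of named genes. Sparc, at −0.52 and −0.90, and Vim, at −0.26 and −0.23, were among 3 that were negative each time. Foxc2 was the 1 gene that was positive each time, with 0.041 and 0.048. limma called 0 genes of these lists, and 1 of them, Cdhr1, had an unadjusted limma p under 0.05.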
